A study of Mus musculus with 6 samples.

Results

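Brush border hydrolases are the digestive enzymes that sit on the luminal membrane of absorptive enterocytes, and 10 of their genes were followed here through intestinal stem cells with and without the Polycomb proteins Ring1a and Ring1b. The genes were taken by symbol: the disaccharidases Sis, Lct and Treh, the peptidases Mep1a, Mep1b, Anpep, Dpp4 and Enpep, and the alkaline phosphatases Alpi and Akp3. All 10 symbols were found in both expression tables of the series, as 11 of 18376 entries in the first table and 11 of 17076 in the second. Dpp4 has a second entry with 1 or 2 reads in 5 libraries and 19 in the other, and its entry with the highest mean was used. RNA was sequenced from Lgr5-GFP+ cells sorted from small-intestinal crypts of C57BL/6 mice on day 6 after 3 tamoxifen injections. Every group carried Lgr5Gfp-CreERT2, a tamoxifen-activated Cre recombinase under the Lgr5 gene, which is active in crypt base stem cells. WT (2 libraries) carried it alone. RingKO (2 libraries) also carried Ring1a-/-, which is absent from every cell of the animal, and Ring1bf/f, which is lost where Cre acts. Bcat (1 library) carried Ctnnb1-ex3, an allele of the beta-catenin gene named in its strain label, although its genotype label reads WT, and Bcat_RingKO (1 library) carried it with Ring1a-/- Ring1bf/f. The sources used here do not give age, sex or mice per library, so p-values measure the spread between libraries, which may be technical.

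Enterocytes arise from crypt stem cells as these divide and move up toward the villus, and hydrolase genes are known to be switched on along that path, so that high levels mark mature cells. Sucrase-isomaltase (Sis), lactase (Lct) and trehalase (Treh) split disaccharides. Meprins (Mep1a, Mep1b) are zinc endopeptidases, aminopeptidase N (Anpep), aminopeptidase A (Enpep) and dipeptidyl peptidase 4 (Dpp4) remove residues from the ends of peptides, and intestinal alkaline phosphatases (Alpi, Akp3) remove phosphate from lipids and bacterial products. Ring1a (symbol Ring1) and Ring1b (symbol Rnf2) are the catalytic subunits of Polycomb repressive complex 1, which ubiquitinates histone H2A at silent genes, often at promoters rich in CpG dinucleotides.

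Promoters of 9 members were matched by symbol in RefSeq (GRCm38.p6). The bases before the start are printed for 4 of them, up to 250 each, because the results turn on these members: Sis and Mep1a were lower in both Ring-deficient settings, Anpep rose in RingKO, and Akp3 had the largest difference in the Bcat pair. They lie at chr3:72967864-72968113 (minus strand, Sis), chr17:43502813-43503023 (minus strand, Mep1a, leaving out the 39 bases nearest the start, which are exonic in another GENCODE transcript), chr7:79848211-79848460 (minus strand, Anpep) and chr1:87124704-87124953 (plus strand, Akp3). Each is written 5′ to 3′ on the strand of the gene, and the capitals mark CpG dinucleotides.
Sis: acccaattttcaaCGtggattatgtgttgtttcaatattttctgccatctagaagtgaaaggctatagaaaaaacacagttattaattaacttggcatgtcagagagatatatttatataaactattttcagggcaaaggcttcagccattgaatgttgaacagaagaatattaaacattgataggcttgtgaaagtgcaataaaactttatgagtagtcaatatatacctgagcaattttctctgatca
Mep1a: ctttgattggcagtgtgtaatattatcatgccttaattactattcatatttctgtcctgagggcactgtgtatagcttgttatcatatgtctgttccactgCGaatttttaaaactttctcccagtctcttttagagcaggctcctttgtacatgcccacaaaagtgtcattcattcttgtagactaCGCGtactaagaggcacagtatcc
Anpep: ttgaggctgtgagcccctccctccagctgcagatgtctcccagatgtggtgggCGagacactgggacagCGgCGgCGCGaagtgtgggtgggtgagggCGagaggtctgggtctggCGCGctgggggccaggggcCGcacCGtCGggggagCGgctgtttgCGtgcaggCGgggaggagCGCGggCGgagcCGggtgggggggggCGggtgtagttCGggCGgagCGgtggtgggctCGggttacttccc
Akp3: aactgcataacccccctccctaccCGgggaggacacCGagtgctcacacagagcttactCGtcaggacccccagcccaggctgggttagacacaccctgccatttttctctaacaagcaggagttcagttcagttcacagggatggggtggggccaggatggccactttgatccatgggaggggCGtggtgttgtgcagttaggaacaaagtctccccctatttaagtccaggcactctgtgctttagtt

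Counted over the full 250 bases, the 4 windows differ in CpG content. Anpep holds 23 CpGs, and 88.0% of 32851 promoters have as many or fewer. Mep1a holds 6, Akp3 holds 4 and Sis holds 1, against a median of 6 over all promoters. Among the others, Enpep holds 6, Dpp4 4, Lct and Treh 1 each, and Alpi none. For Anpep, 3 of 6 GENCODE transcripts begin within 50 bases of this start and 3 elsewhere, and the counts do not tell which start was used. Motifs of enterocyte transcription factors and a TATA motif were searched in the same 250 bases on both strands. The CDX motif TTTATG was found in Sis, 43 bases before the start, and in Lct, 31 bases before it, and in 10.8% of all promoters. The HNF4 motif CAAAGT was found in Mep1a (29 bases before the start, within the stretch not printed), Akp3, Alpi and Treh, against 12.6% of all promoters. The HNF1 motif GTTAAT was found in Sis alone (6.43% of all promoters), the GATA motif AGATAA in Lct and Dpp4 (9.99%), and the TATA motif TATAAA in Sis, Alpi, Dpp4 and Enpep (12.4%). TATAAA lay 33 bases before the start in Alpi, 52 in Enpep, 138 and 134 in Sis and 227 in Dpp4. Anpep held none of these motifs in this window.

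The WT libraries held 6753789 and 6294932 reads over all entries and the RingKO libraries 2911422 and 2651201, while Bcat held 922153 and Bcat_RingKO 4470853. The first table holds group means, from which the reads of the 2 libraries behind each mean were recovered. These libraries are called A and B, letters that cannot be tied to the replicate numbers of the labels. Levels below are in RPM, the reads of a gene per 1000000 reads over the 16387 entries shared by both tables. Ring1 stood at 71.7 and 57.7 RPM in the WT libraries, 3.09 and 4.15 in those of RingKO, 26.0 in Bcat and 9.62 in Bcat_RingKO. Rnf2, given as 1 value per gene that does not check the floxed part, stood at 32.6 and 39.1 RPM in the WT libraries, 48.8 and 38.9 in those of RingKO, 84.6 in Bcat and 122 in Bcat_RingKO. On that scale Lgr5 itself stood at 83.8 to 337 in every library, and the 14 stem cell markers listed summed to 4504 to 10210. The authors scaled these tables separately, so levels set across them are descriptive. A gene "rose" or "fell" where the adjusted p that the authors deposited was below 0.05. Log2 fold changes printed with ± are estimates by edgeR with their SE (n = 2 libraries per genotype). The authors' adjusted p-values printed beside them belong to the authors' own deposited log2 fold changes. Those were -1.158 for Sis, -1.659 for Mep1a, 0.699 for Anpep, -0.975 for Alpi and -1.523 for Akp3.

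The WT stem cell libraries held reads of all 10 hydrolases, at levels that differed widely between genes. In RPKM, which is the RPM divided by the transcript length in kilobases, Anpep was highest, at 73.8 and 74.6 in the WT libraries. Sis followed at 15.5 and 18.7, Alpi at 16.7 and 13.5, and Dpp4 at 11.2 and 12.1. Mep1a stood at 8.37 and 9.52, Mep1b at 8.81 and 8.14, Akp3 at 6.97 and 5.20 and Enpep at 5.42 and 5.85. Lct (2.11 and 1.60) and Treh (0.506 and 0.621) were lowest. Along this order the libraries of Sis and Alpi, of Mep1a and Mep1b and of Akp3 and Enpep overlapped, so those neighbours did not differ beyond their spread. In Bcat the per-length order was Anpep (188), Alpi (104), Akp3 (80.1), Mep1b (77.8), Sis (50.1), Mep1a (39.7), Enpep (27.2), Dpp4 (21.0), Lct (19.2) and Treh (2.65). In Bcat_RingKO it was Anpep (160), Dpp4 (41.8), Mep1b (21.6), Alpi (19.2), Sis (17.6), Enpep (15.5), Mep1a (8.27), Lct (5.04), Akp3 (1.87) and Treh (0.219). Anpep therefore headed the order in all 4 genotypes as far as these libraries go, since it also led in RingKO at 143 and 122, followed by Dpp4 at 21.2 and 15.8. Anpep made up 47.2% and 46.3% of the summed RPM of the 10 genes in the WT libraries, 70.1% and 57.8% in those of RingKO, 32.9% in Bcat and 50.2% in Bcat_RingKO.

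**Figure D1:**
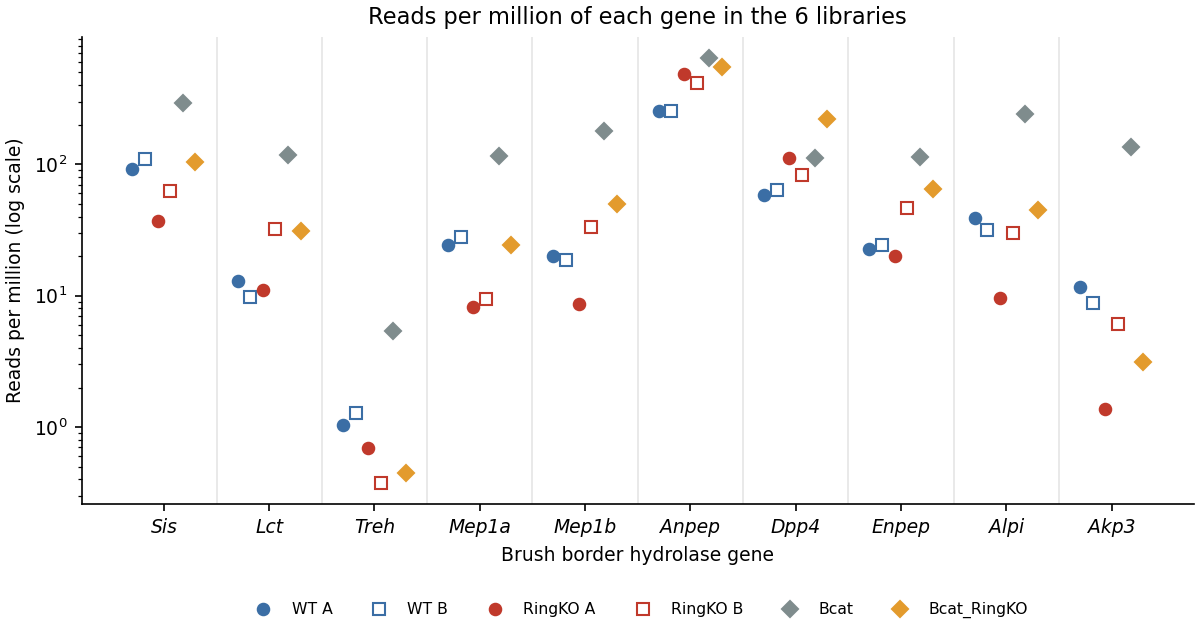
RPM (log axis) of each of the 10 genes in every library: WT A and B (blue), RingKO A and B (red), Bcat (grey) and Bcat_RingKO (orange); filled circles are libraries A and open squares libraries B. For 9 of the genes Bcat is the highest library, Dpp4 being highest in Bcat_RingKO, and the RingKO libraries lie close together for Mep1a and Anpep but apart for Lct, Mep1b, Alpi and Akp3.

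The first comparison asked how the hydrolases differ between RingKO and WT stem cells. Of the 10 genes, 2 fell (Sis and Mep1a), 1 rose (Anpep) and 7 did not pass. Of all 18376 entries, 1.76% fell and 3.14% rose by the same rule. By edgeR's quasi-likelihood test on the recovered reads, in which 2.95% of entries were lower and 9.91% higher, the same 3 genes were called and Dpp4 was added as higher. DESeq2 called these 4 as well, with 1.89% of entries lower and 6.88% higher. The median edgeR log2 fold change was 0.13 over the 9 members tested and -0.01 over all 11170 entries tested. The authors' own scaling lies lower, with a median of -0.17 on the log2 scale over the 10957 entries whose mean reached 10 normalized reads. Both RingKO libraries lay below both WT libraries for Sis, Mep1a, Alpi, Akp3 and Treh, and both lay above for Anpep and Dpp4. Of the 9 members with a mean of at least 10 that is 4 below and 2 above, while 45.3% of entries at that mean lay below and 18.5% above. The count of members below is near that background. Fewer cells of a type and less RNA per cell cannot be told apart in bulk RNA.

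Among the disaccharidases, sucrase-isomaltase fell and lactase did not follow it. Sis, which digests sucrose and starch fragments, had 91.4 and 110.1 RPM in WT and 37.1 and 63.1 in RingKO. Both RingKO libraries were under the lower WT library, and the log2 fold change was -0.98 ± 0.23 (authors' deposited table, adjusted p = 0.00689; edgeR, adjusted p = 0.0301). Leaving out WT library A or B raised edgeR's adjusted p for Sis to 0.067 and 0.20. In every fit that leaves out a library, 1 group is a single library assumed to vary like the other group, whose pair alone gives the spread. With Ctnnb1-ex3, Sis had 295.1 RPM in Bcat and 103.4 in Bcat_RingKO, a ratio of normalized reads of 0.34 with a 95% counting interval of 0.292 to 0.396.

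Lactase, the milk sugar enzyme whose level is highest before weaning, had 13.0 and 9.85 RPM in WT, 11.0 in RingKO library A and 32.1 in RingKO library B. One RingKO library lay between the WT libraries and the other above them. The difference for Lct, 0.93 ± 0.43 on the log2 scale, passed neither the authors' deposited test (adjusted p = 1) nor edgeR (adjusted p = 0.216). Without RingKO library A the log2 fold change of Lct was 1.501, and without library B it was 0.01. Lct went in the Bcat pair from 118.2 to 31.1 RPM, a ratio of 0.255 (0.197 to 0.331). Trehalase, which splits the fungal and insect sugar trehalose, was close to the detection limit, with 7 and 8 reads in the WT libraries, 2 and 1 in those of RingKO, 5 in Bcat and 2 in Bcat_RingKO. It had an adjusted p of 1 in the authors' deposited table, was below edgeR's filter on low counts, and had a ratio of 0.080 (0.00762 to 0.489) in the pair. A depth of 2651201 to 6753789 reads leaves changes of Treh between WT and RingKO poorly measured.

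Of the 2 meprin subunits, which pair to form a membrane-bound protease, Mep1a fell in RingKO and Mep1b did not pass; the difference between them was not tested. Mep1a had 24.4 and 27.8 RPM in WT and 8.25 and 9.44 in RingKO. The libraries of each genotype lay close together and the genotypes did not overlap. Its log2 fold change was -1.52 ± 0.22 (authors' deposited table, adjusted p = 0.00087; edgeR, adjusted p = 0.00355), a 2.87-fold lower level. With a WT library left out the adjusted p of Mep1a was 0.021 (without A) and 0.048 (without B) by edgeR. Mep1b had 20.1 and 18.6 RPM in WT, 8.59 in RingKO library A and 33.2 in library B. The RingKO libraries lay on either side of WT, and the log2 fold change of 0.13 ± 0.46 did not pass (edgeR, adjusted p = 0.893). Without RingKO library A it was 0.80 and without library B it was -1.10. Both subunits were lower in the Bcat pair: Mep1a went from 116.1 to 24.2 RPM (ratio 0.202, interval 0.153 to 0.266) and Mep1b from 177.9 to 49.5 (ratio 0.270, interval 0.219 to 0.332).

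The aminopeptidases and Dpp4 did not share the decrease of Sis and Mep1a in RingKO. Anpep, also known as CD13, had 252.5 and 255.4 RPM in WT and 488.3 and 417.3 in RingKO. Both RingKO libraries stood above both WT libraries, which were nearly equal. The log2 fold change was 0.88 ± 0.15, a 1.84-fold higher level (authors' deposited table, adjusted p = 0.0483; edgeR, adjusted p = 0.00687; DESeq2, adjusted p = 2.2e-05). Anpep lost its call with either WT library left out (edgeR, adjusted p = 0.15 without A and 0.13 without B). Bcat and Bcat_RingKO had 644.4 and 546.4 RPM of Anpep, a ratio of 0.822 (0.751 to 0.901) and so slightly lower in Bcat_RingKO.

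Dpp4, also known as CD26, cleaves dipeptides from peptides including the incretin hormones. It had 58.8 and 63.6 RPM in WT and 111.7 and 83.5 in RingKO, without overlap. Its log2 fold change of 0.72 ± 0.18 passed by edgeR (adjusted p = 0.0357) and DESeq2 (adjusted p = 0.0466) but not by the authors' deposited test (adjusted p = 0.617). Dpp4 lost it too (edgeR, adjusted p = 0.30 without A and 0.19 without B). In the pair it went from 110.7 to 220.4 RPM, a ratio of 1.93 (1.57 to 2.39), the only member with a ratio above 1. Enpep, which cleaves acidic residues such as that of angiotensin, had 22.7 and 24.5 RPM in WT, 19.9 in RingKO library A and 46.5 in library B. The log2 fold change of 0.52 ± 0.33 did not pass (edgeR, adjusted p = 0.365). Without RingKO library A it was 1.00, and without library B it was -0.17. In the pair Enpep went from 113.9 to 64.7 RPM (ratio 0.550, interval 0.439 to 0.695).

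Dpp4 and Anpep are also known from immune and stromal cells. The 14 immune markers present in both tables summed to 36.2 and 32.0 RPM in the WT libraries, 38.5 and 70.6 RPM in those of RingKO, 91.1 in Bcat and 122 in Bcat_RingKO, with 0 to 3 of the 14 at 0 reads per library. The T cell gene Cd3e, chosen after its values were seen, had 0 to 3 reads in each library. Cd68, another immune marker chosen that way, was lowest in the Bcat library (6.51 RPM) and highest in Bcat_RingKO (63.3 RPM). Its WT libraries held 14.4 and 13.5 RPM, while RingKO libraries A and B held 19.6 and 40.4 RPM. Of 5 immune markers whose mean in the Bcat pair reached 10 normalized reads, 1 was at least 2-fold higher in Bcat_RingKO and 2 at least 2-fold lower. Unlike Cd68, other immune markers chosen after their values were seen had less RPM in Bcat_RingKO than in Bcat. Lyz2 went from 39.1 to 21.7 RPM, Gzma from 13.0 to 4.7, Gzmb from 9.76 to 8.05 and Coro1a from 11.9 to 6.04. The 9 stromal and endothelial markers summed to 11.0 to 16.2 RPM outside Bcat and 57.5 in Bcat. Of the 18 immune and 14 stromal markers in the first table, 0 rose or fell; edgeR tested 5 and 4 of them and called 0. Dpp4 itself stood at 111.7 and 83.5 RPM in RingKO libraries A and B, 110.7 RPM in Bcat and 220.4 RPM in Bcat_RingKO. Within RingKO it was thus higher in library A, where the immune sum and Cd68 were lower. The part of both lists in the values of Anpep and Dpp4 was not tested.

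The alkaline phosphatases had the lowest ratios in the Bcat pair apart from Treh and were lower in RingKO without passing the test. Akp3 is the duodenal isozyme and Alpi the isozyme found along the whole small intestine, and their genes are neighbours on chromosome 1. The transcripts share 2.15% of the 50-base stretches of Akp3 and 1.53% of those of Alpi as exact matches. Reads with mismatches are not covered by this, and how many reads were counted for the wrong gene was not tested. Alpi had 39.1 and 31.5 RPM in WT, 9.62 in RingKO library A and 30.2 in library B, a log2 fold change of -0.81 ± 0.40 (authors' deposited table, adjusted p = 0.492; edgeR, adjusted p = 0.246). Akp3 stood at 11.7 and 8.74 RPM in WT and at 1.38 and 6.04 RPM in RingKO, with a log2 fold change of -1.45 ± 0.52 (authors' deposited table, adjusted p = 0.112; edgeR, adjusted p = 0.121). For both genes RingKO library A stood further below WT than library B. The log2 fold change of Alpi was -0.21 without RingKO library A and -1.81 without library B, and that of Akp3 was -0.74 and -2.81.

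In the Bcat pair Akp3 had 124 reads in the shallower Bcat library and 14 in Bcat_RingKO. That is 134.5 against 3.13 RPM and a ratio of 0.0226 (0.0120 to 0.0393), or 44.3-fold lower. Alpi had 241.9 and 45.0 RPM and a ratio of 0.180 (0.148 to 0.219). The intervals of these neighbouring paralogues do not overlap. They cover counting error only, and so do all intervals given for the pair, in which each genotype is 1 library without a replicate check.

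**Figure D2:**
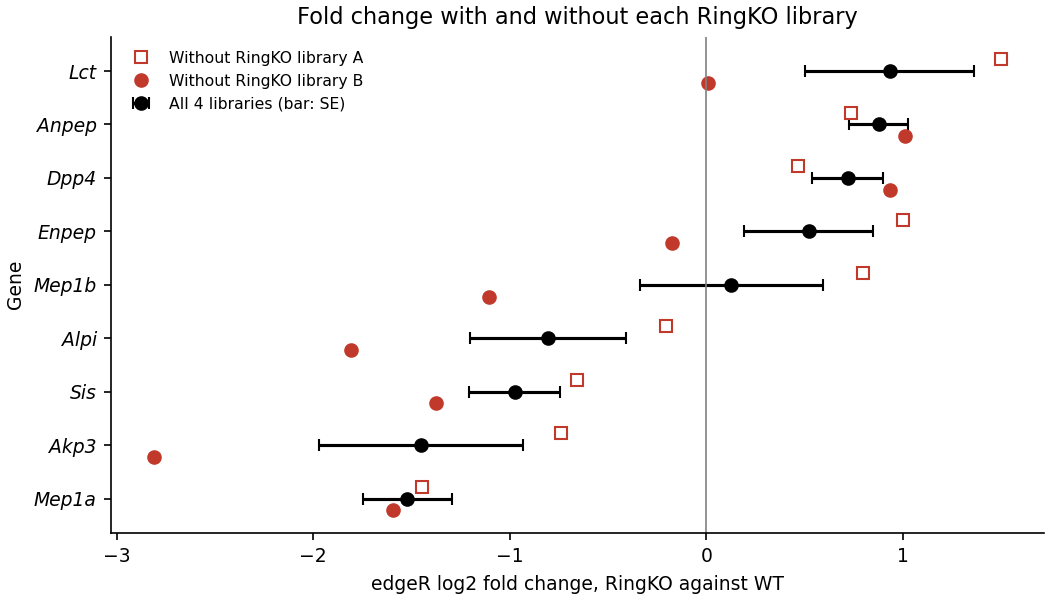
edgeR log2 fold change of RingKO against WT for the 9 genes tested, with all 4 libraries (black, bars are SE), without RingKO library A (open squares) and without RingKO library B (filled red circles). The values for Mep1a, Anpep, Sis and Dpp4 stay on one side of 0 (grey line), while those of Mep1b and Enpep lie on both sides, and the 3 values of Akp3 spread from -2.81 to -0.74.

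The RingKO libraries differed from each other in these genes more than the WT libraries did. On the authors' scale Lct, Mep1b, Enpep, Alpi and Akp3 were 2.13 to 3.46 times higher in RingKO library B than in library A. That is 5 of the 9 members with a mean of at least 10, against 4.72% of all entries at that mean, while 0 of 9 were at least 2 times higher in library A, against 2.41% of entries. Sis was 1.56 times higher in library B and Mep1a 1.05 times, while Anpep and Dpp4 were lower in library B, at 0.786 and 0.688 times. Between the WT libraries the log2 ratio of these 9 genes stayed between -0.37 and 0.31. Other enterocyte genes moved with this difference. Of 26 further enterocyte markers with a mean of at least 10, 15 were at least 2 times higher in RingKO library B and 0 in library A. Their summed level was 2388 RPM in library A and 4240 in library B, against 3714 and 3304 in WT. The apolipoprotein gene Apoa4 had 64.3 and 293 RPM in RingKO libraries A and B, and the carrier gene Fabp1 had 29.9 and 117 (both chosen after their values were seen). None of the 28 enterocyte markers was at 0 reads in any library. Of 12 goblet markers with that mean 3 were at least 2 times higher in library B, with sums of 11420 and 18560 RPM in libraries A and B, and of 14 enteroendocrine markers 4 were. So were 7 of 20 transporters of the apical membrane, 4 of 11 other brush border enzymes and 0 of 19 microvillus genes. The sum of the stem cell markers went the other way, at 7704 and 4504 RPM in RingKO libraries A and B. Gene by gene, 2 of the 13 with that mean were at least 2 times higher in library A and 0 in library B. Their median log2 ratio of B to A was -0.37, against -0.10 over all entries at that mean. For the lists that follow, the sums of both RingKO libraries lay on the same side of both WT libraries, except for the goblet markers. Of 16 Paneth markers 11 rose and 0 fell, with sums of 4818 and 3036 RPM in WT and 11300 and 15640 RPM in RingKO. Of 18 dissociation-induced genes, which respond to handling of the tissue, 4 rose and 0 fell, and edgeR called 13 as higher; their sums were 9185 and 11020 RPM in WT and 14420 and 19120 RPM in RingKO. Of 17 enteroendocrine markers 1 rose and 9 fell, of 10 tuft markers 0 rose and 4 fell, of 12 goblet markers 1 rose and 1 fell, and of 14 stem cell markers 0 rose and 3 fell. Beside these counts, 3.14% of all entries rose and 1.76% fell, and edgeR called 9.91% of entries as higher. The part of these markers in the hydrolase values was not tested.

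**Figure D3:**
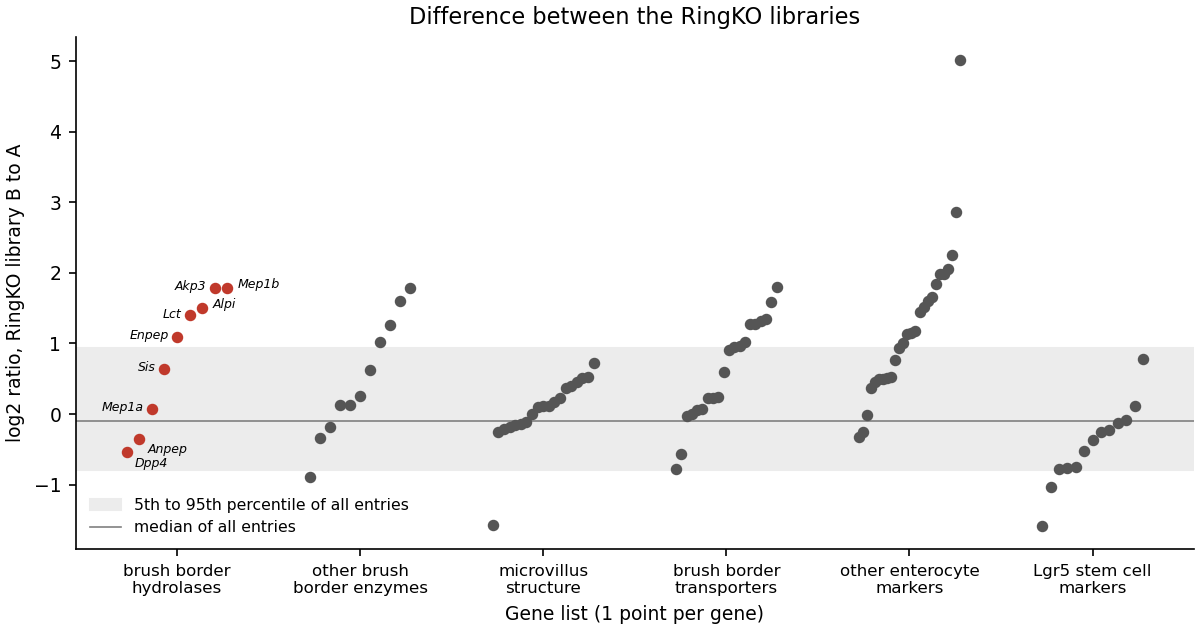
Log2 ratio of RingKO library B to library A for genes whose mean reached 10 normalized reads, 1 point per gene, by gene list. The grey band spans the 5th to 95th percentile of all 10957 entries (-0.79 to 0.94), with their median as a line. Lct, Mep1b, Enpep, Alpi and Akp3 lie above the band together with 15 enterocyte markers at a log2 ratio of at least 1, and the Lgr5 stem cell markers have a median of -0.37.

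The second comparison asked how the same genes differ when the Ring alleles are combined with Ctnnb1-ex3. Of the 10 members, 9 had a lower normalized level in Bcat_RingKO than in Bcat and 1, Dpp4, a higher one. On the authors' deposited scale 7 were at least 2-fold lower (Sis, Lct, Treh, Mep1a, Mep1b, Alpi and Akp3) and 0 at least 2-fold higher, against 20.8% and 21.8% of all entries. Where the mean reached 10 normalized reads, 6 of 9 were lower by that much, against 9.19% of entries lower and 27.1% higher. Akp3, with 124 reads in Bcat and 14 in Bcat_RingKO, reached that mean only through its level in Bcat. The median log2 ratio of the 10 members was -1.93, and that of all 17076 entries was 0.00. Where the mean reached 10 normalized reads, the medians were -1.89 for 9 members and 0.31 for 10266 entries. The authors' scale is therefore not centred on 0 for those entries. With trimmed-mean scaling every ratio was smaller, that of Sis being 0.293 and that of Dpp4 1.66. In this pair there is no test, since each group is 1 library.

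**Figure D4:**
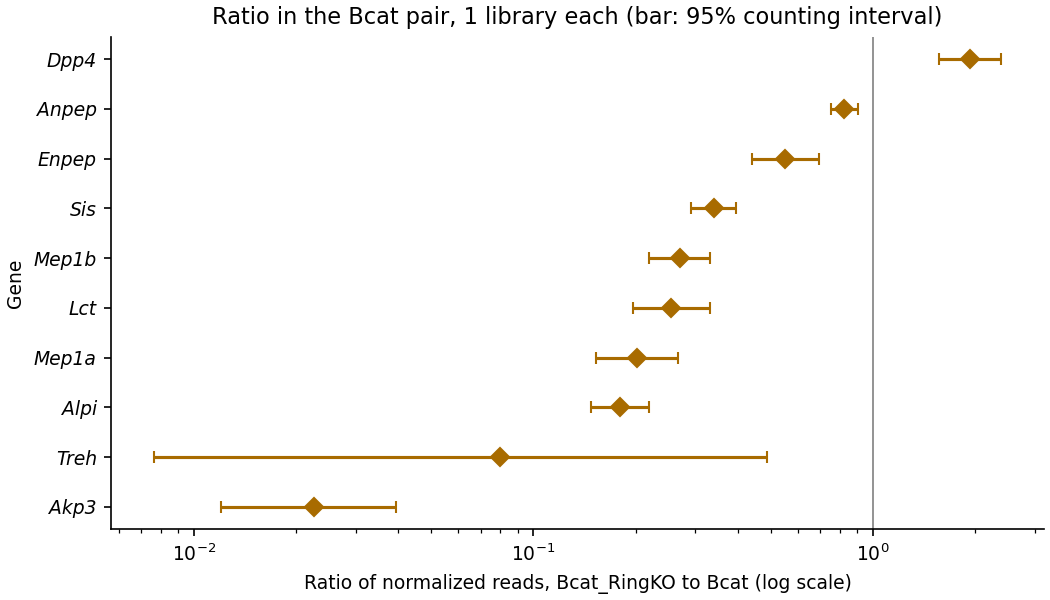
Ratio of normalized reads in Bcat_RingKO to Bcat for the 10 genes (log axis), with bars for the exact 95% counting interval; 1 library per group, so the bars hold no replicate error. Only Dpp4 lies above 1 (grey line), Anpep is nearest to 1 among the others, and Akp3 is lowest at 0.0226.

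The Bcat library was high in these genes. Every member had more RPM in Bcat than in either WT library, from 1.81 times the WT mean for Dpp4 and 2.54 times for Anpep to 10.3 times for Lct and 13.2 times for Akp3. Of the 9 members that reached a mean of 10 RPM over these 3 libraries, 8 were at least 2 times the WT mean, against 17.3% of entries, and 6 at least 4 times, against 2.67%. Bcat_RingKO lay between the WT libraries for Sis (103.4 RPM), just below both for Mep1a (24.2 RPM), and below both for Akp3 (3.13 RPM) and Treh (0.448 RPM). It lay above both for Lct (31.1 RPM), Mep1b, Enpep, Alpi, Anpep and Dpp4. The further enterocyte markers were also high in Bcat, with a summed level of 10170 RPM, and lower in Bcat_RingKO, at 3106. The Bcat_RingKO sum lay below those of both WT libraries (3714 and 3304 RPM). Of the 27 markers whose mean reached 10 normalized reads, 22 were at least 2-fold lower in Bcat_RingKO, against 9.19% of all entries at that mean. At the same mean, and against the same share, 12 of 15 Paneth, 9 of 11 enteroendocrine, 6 of 12 goblet, 1 of 6 tuft and 2 of 5 immune markers were at least 2-fold lower there. So were 3 of 3 stromal markers, with 8, 25 and 9 reads in Bcat and 9, 0 and 1 in Bcat_RingKO. They reached that mean only through their level in Bcat, so their count is no separate result. Some markers of the other lists did so too, such as Gcg (47.7 RPM in Bcat, 2.46 in Bcat_RingKO) and Neurog3 (31.5 and 2.68 RPM). Of 18 dissociation-induced genes 1 was lower and 13 were higher by that much, against 9.19% and 27.1% of all entries at that mean. Their sums were 4268 RPM in Bcat and 7002 RPM in Bcat_RingKO. The part of these lists in the hydrolase values was not tested. With 922153 reads Bcat is the shallowest library, and genotype and library cannot be told apart.

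Other enzymes of the brush border and the cell surface were taken from a list of 18, of which 15 were in the first table. Among them 2 rose and none fell, by the authors' table and by edgeR. Of all entries 3.14% rose and 1.76% fell by the former, and 9.91% were higher and 2.95% lower by the latter. Alpl, the tissue-nonspecific relative of Alpi and Akp3, had 1.04 and 0.795 RPM in WT and 12.7 and 15.1 in RingKO, higher by 3.92 ± 0.38 on the log2 scale (edgeR, adjusted p = 0.000621). It had 0 reads in Bcat, which allows up to 3.25 RPM, and 14.8 RPM in Bcat_RingKO. Alpl thus differed in the opposite direction to its intestinal paralogues in the Bcat pair. Carboxypeptidase M (Cpm) rose by 1.497 ± 0.168 on the log2 scale (edgeR, adjusted p = 0.00117) and was 3.75-fold higher in the pair. Mgam (maltase-glucoamylase), a close relative of Sis chosen after its values were seen, had 734 and 703 RPM in WT and 604 and 1020 in RingKO, and 606 and 697 in Bcat and Bcat_RingKO. Of the 13 enzymes whose mean in the Bcat pair reached 10 normalized reads, 9 were at least 2-fold lower and 2, Alpl and Cpm, at least 2-fold higher, against 9.19% and 27.1% of entries at that mean. Alpl reached that mean only through Bcat_RingKO. Enpp7, chosen after its values were seen, reached it only through Bcat, with 34 reads there and 5 in Bcat_RingKO.

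Genes that build the microvillus were also read out. Of 20, which include the actin bundlers and motors of the brush border, 2 fell in the authors' deposited table, against 1.76% of all entries. They were the myosin gene Myo1a (adjusted p = 0.0126) and Baiap2l2 (adjusted p = 0.00536). Neither passed by edgeR (adjusted p = 0.131 and 0.078), which called instead the protocadherin gene Cdhr5 as higher (0.80 ± 0.21, adjusted p = 0.0478; chosen after its values were seen). Without WT library A or B the edgeR adjusted p of Cdhr5 was 0.33 or 0.15. Between the Bcat libraries 2 of the 17 whose mean reached 10 normalized reads were at least 2-fold lower and 0 higher, against 9.19% and 27.1% of entries. The median log2 ratio of the list was -0.12, while that of the hydrolases was -1.93.

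Against 1.76% of all entries that fell and 3.14% that rose, 4 of 23 transporters of the apical membrane fell and none rose. These were the anion exchangers Slc26a6 (log2 fold change -1.08 ± 0.29) and Slc26a3 (-1.34 ± 0.33), the sulphate transporter Slc13a1 and the glutamate transporter Slc1a1 (-0.74 ± 0.15). By edgeR the 4 passed, at adjusted p-values of 0.0451, 0.0326, 0.00618 and 0.0171, and the sterol transporter Abcg5 and the lipoprotein receptor Scarb1 were added as higher (chosen after their values were seen; adjusted p = 0.13 and 0.15 without WT library A). Without WT library A the edgeR adjusted p was 0.21, 0.16, 0.068 and 0.11 for the 4 that fell, and without WT library B 0.11, 0.16, 0.096 and 0.20. For Slc13a1 the WT libraries held 34 and 36 reads, the RingKO libraries 0 and 1. Of the 21 transporters whose mean in the pair reached 10 normalized reads, 5 were at least 2-fold lower and 6 at least 2-fold higher, against 9.19% and 27.1% of entries.

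Transcription factors known to act in enterocytes were also read out. Of 26, 5 fell and 2 rose in the authors' deposited table, against 1.76% and 3.14% of all entries. Isx, an intestinal homeobox factor, fell by 1.12 ± 0.16 on the log2 scale, Hnf4g by 0.84 ± 0.15 and the vitamin D receptor Vdr by 0.68 ± 0.16 (edgeR, adjusted p = 0.00307, 0.00906 and 0.0257). Cdx1 and Hnf4a, which are outside the naming rule, fell by the authors' deposited test (adjusted p = 0.00893 and 0.0242) but not by edgeR (0.0873 and 0.112). Prdm1, known as a repressor of adult enterocyte genes in the fetal and suckling gut, rose by 2.33 ± 0.36 (edgeR, adjusted p = 0.00431). In the pair Prdm1 had 4 reads in Bcat, near the detection limit of that library, and 150 in Bcat_RingKO. Its deposited fold there was 6.04, with 1 added to each count, and is poorly measured. Without WT library A edgeR's adjusted p was 0.10 for Hnf4g and 0.18 for Vdr, and without WT library B it was 0.080 and 0.32, and 0.051 for Prdm1. In the Bcat pair Isx stood at a fold of 0.363 and Hnf4g at 0.270.

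Of the 28 further enterocyte markers 4 fell and none rose, against 1.76% and 3.14% of all entries. Those that fell were the antimicrobial lectin gene Reg3b (-2.80 ± 0.20), Prap1 (-1.67 ± 0.26), the alcohol dehydrogenase gene Adh6a (-1.80 ± 0.28) and the fatty acid carrier gene Fabp2 (-0.96 ± 0.20). edgeR called these 4 as lower (adjusted p of 0.000165, 0.00462, 0.00442 and 0.0167) and 2 lipid synthesis genes, Dgat2 and Mogat2, as higher (chosen after their values were seen; adjusted p = 0.16 and 0.092 without WT library B). Fabp2 lost its call with either WT library left out (edgeR, adjusted p = 0.13 without A and 0.059 without B). Without RingKO library A edgeR called 14 of these markers as higher and 5 as lower, and without RingKO library B 3 as higher and 10 as lower. Among the 10 hydrolases it called 5 as higher and 2 as lower without library A, against 15.9% and 11.0% of all entries tested. Without library B it called 2 as higher and 5 as lower, against 11.0% and 4.9% of entries. The spread in these fits comes from the WT pair alone.

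Genes whose levels ran most like those of the called members over the 6 libraries were ranked by Pearson correlation of log2(RPM + 1) among 7262 entries with at least 20 RPM on average. For Sis these were Cd47 (r = 0.994), Usf2 (0.991) and Rgs13 (0.988). For Mep1a they were Pcsk1 (0.996), Reg1 (0.994) and Rgs13 (0.994), and for Anpep Stom (0.982), Rhoc (0.980) and Tmem159 (0.976). Rgs13 is one of the tuft markers that fell in RingKO. It had 122 RPM in Bcat and 1.72 to 13.6 RPM in the other libraries, so it met the limit of 20 RPM only through Bcat. Reg1, a secreted lectin gene, had 33.9 and 29.4 RPM in WT, 6.87 and 7.93 RPM in RingKO, 188 RPM in Bcat and 22.6 RPM in Bcat_RingKO, the course that Mep1a took. Stom, which encodes a membrane scaffold protein, had 10.2 and 10.6 RPM in WT, 28.2 and 24.2 RPM in RingKO, 45.6 RPM in Bcat and 48.6 RPM in Bcat_RingKO, where Anpep was also above WT. With 6 points, of which Bcat is the extreme for Sis and Mep1a, such correlations describe these libraries only.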

How the data were processed

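Total RNA of the sorted cells went into TruSeq RNA v2 libraries, per the labels' protocols. TopHat, DESeq and build mm9 appear in the submitters' processing notes without versions; the sources used here name no read counter, annotation or strand setting. The deposited signal is, judged from its values, a count of reads with 1 added and then scaled by a size factor, as a mean per group (WT, RingKO) or per library (Bcat pair). The authors deposited a fold (ratio) and its log2 value, and p-values; those of the Bcat pair were not used.

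Both counts behind each mean were solved for (1 solution for 18363 of 18376 WT means, all RingKO means; for the other 13, at means of at least 10922, the solution with the closest libraries was taken), and 100% of pair values were whole within 0.001. The main test is the authors' deposited adjusted p under 0.05. Recovered reads were tested with edgeR 4.0.16 (quasi-likelihood, TMM, filterByExpr, Benjamini-Hochberg over all entries; SE from the log2 fold change and F), DESeq2 1.42.0 and limma 3.58.1 (log2(normalized reads + 1), also with 0.5 and 5) in R 4.3.3, after tests on simulated data. Pair intervals are exact conditional Clopper-Pearson intervals at 95% (SciPy 1.17.1). Transcript lengths are from GENCODE vM21, and sequences from RefSeq on GRCm38.p6, another build than the files'. Members and lists were chosen with earlier results of these data known. Named genes are all members and, per other list, up to 4 called genes by smallest adjusted p; other names are marked, and 1 transcription factor is not reported here. 10 listed genes had no entry, and Guca2a is on both the enterocyte and goblet lists.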

Additional observations from a re-analysis of the deposited data

Results flagged for a closer look

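Anpep was above both WT libraries in both RingKO libraries, yet lower in Bcat_RingKO than in Bcat (ratio 0.822, 95% counting interval 0.751 to 0.901, or 0.708 with trimmed-mean scaling). It drew attention because the direction of the Ring difference is opposite in these settings. That difference was not tested, since the Bcat groups are 1 library each. The groups of 2 libraries are too small for a check of outlying libraries.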

How the results depend on the processing

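The count of members that rose (1 in the authors' table) was 2 by edgeR, by edgeR with DESeq2 size factors and by DESeq2, 1 by limma at pseudocounts of 0.5, 1 and 5 and by edgeR without a filter, and 0 at a threshold of 0.01. The count that fell was 2 in all of these. With 1 library left out, edgeR called 0 to 5 members as higher and 1 to 5 as lower. The log2 fold change of Mep1b was -0.16 by limma and ranged from -1.10 to 0.80 with a library left out, and that of Enpep from -0.17 to 1.00. Over all entries 577 rose and 323 fell in the authors' table, against 1107 and 330 by edgeR and 872 and 240 by DESeq2. With a WT library left out edgeR called 479 or 519 as higher and 87 or 83 as lower, and without RingKO library A or B 1938 or 1322 and 1338 or 589. Of 30 ratios of the pair under other scalings or summed entries, 29 stayed within their counting interval; that of Anpep with trimmed-mean scaling did not. The limit on the mean for the other lists in the pair was chosen after seeing the data; without it 10 of 15 enzymes, 6 of 23 transporters and 4 of 20 microvillus genes were at least 2-fold lower, Ace and Slc7a9 among them only through the 1 added to each count (0 reads in Bcat, 1 in Bcat_RingKO). No paired analysis was possible because the recovered libraries cannot be tied to the replicate numbers of the labels. Treh could not be fitted by edgeR with its filter or by limma. The depth of Bcat (922153 reads) leaves Treh at 5 reads and Alpl at 0. In the fits that leave out a library, 1 group is a single library and the other group's pair gives the spread.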
